A study of Mus musculus with 8 samples.

Results

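Bile acid synthesis and transport were followed through 10 genes in mouse primary hepatocytes, the metabolic cells of the liver kept in culture. The genes are the bile acid hydroxylases Cyp7a1, Cyp8b1, Cyp27a1, Cyp7b1 and Cyp39a1, the conjugating enzyme Baat, the uptake carriers Slc10a1 and Slco1b2, and the canalicular pumps Abcb11 and Abcb4. They were taken by name: every probe set whose platform symbol is exactly one of the 10 was used, which gave 20 of 45101 probe sets and 10 of the 18194 genes named by a single symbol. The probe set with the highest mean leads for each gene. All 10 lead probe sets passed the filter on dim signals, as did 15 of the 20 probe sets.

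The cells came from wild-type (WT) mice or from transglutaminase 2 knockout mice (KO), both on a C57BL6/129SVJ background. They were incubated for 15 h with 0 or 100 mM ethanol, and each of the 4 groups had 2 arrays, A and B. Age, sex and the deleted part of the gene are not in the labels. No label ties an array to an animal or a culture, so p-values here reflect the spread between arrays alone, and that spread may be technical. The titles of the ethanol arrays give 100 mM, but on the B array of either genotype a further label describes an incubation without treatment. The titles were followed. Over the tested probe sets, ethanol KO A and B correlated at 0.967, against 0.986 or 0.987 within the pairs of the other groups. Ethanol KO B correlated more closely, at 0.973, with an array of another group. The cause of this was not tested.

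Tgm2, the targeted gene, read 16700 to 16800 in WT and 368 to 704 in KO (normalised intensity). Before normalisation the 2 untreated KO arrays and ethanol KO A were dim, with trimmed means of 113.3 to 117.5 against 228 to 341.5 on the other 5. The 3′ to 5′ signal ratio of the control transcript Pcx was 26.7 and 44.5 in ethanol-treated WT and 4.91 to 16.8 in the other groups. Hepatocyte markers were bright on every array, with a summed intensity over 7 markers of 75300 and 78000 in WT without and with ethanol and 72100 and 71100 in KO. Of these 7 markers, 1 was called higher and 4 lower in KO without ethanol, and 0 higher and 3 lower with it, with Cps1 of the urea cycle at -0.629 averaged over treatments. Over all probe sets tested, 32.3% were called in KO against WT without ethanol, 29.1% with it and 42.2% averaged over treatments. Among markers of other cell types, Cd68 of macrophages (KO minus WT averaged over treatments 1.56), Sox9 of bile duct cells (1.56) and Dcn of fibroblasts (1.43) were called higher in KO, and the macrophage marker Marco was called lower (-1.13). The summed level of 12 macrophage and leukocyte markers was 5170 to 7250 in WT and 6180 to 8880 in KO, most of it from Cd14. Of the 11 tested, 1 was called higher and 1 lower in KO averaged over treatments. The sum over 6 cholangiocyte markers was 323 to 482 in WT and 795 to 1150 in KO. Sox9 carried most of the cholangiocyte sum, while Krt7, Krt19 and Cftr were under the filter. Epcam, the other cholangiocyte marker tested, differed by -0.875 without ethanol, 0.891 with it and 0.0081 averaged (KO minus WT). Of the 2 tested, 1 was called higher and 0 lower averaged over treatments, beside 42.2% over all probe sets. Of 8 endothelial markers 2 were called higher in KO averaged over treatments and 0 lower, and of 5 tested stellate and fibroblast markers 1 higher and 0 lower. The averaged counts of macrophage, endothelial and stellate markers lie under the 42.2% over all probe sets. The part of array brightness, of the Pcx ratio and of these markers in the results below was not tested. In bulk cultures, fewer cells of a type and less RNA per cell cannot be told apart.

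Hepatocytes make bile acids from cholesterol by a classic pathway, which Cyp7a1 opens, and by an acidic pathway, in which the side chain is oxidised first by Cyp27a1 and the product is then hydroxylated by Cyp7b1. Cyp8b1 directs synthesis towards cholic acid, and Baat joins the finished acids to taurine or glycine. Slc10a1 and Slco1b2 bring bile acids and other organic anions in from the blood, Abcb11 exports bile salts into the canaliculus, and Abcb4 moves phosphatidylcholine into bile. The nuclear receptor FXR, encoded by Nr1h4, senses bile acids and is known to induce Abcb11 and, through the repressor SHP encoded by Nr0b2, to lower Cyp7a1 and Cyp8b1.

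**Figure D1:**
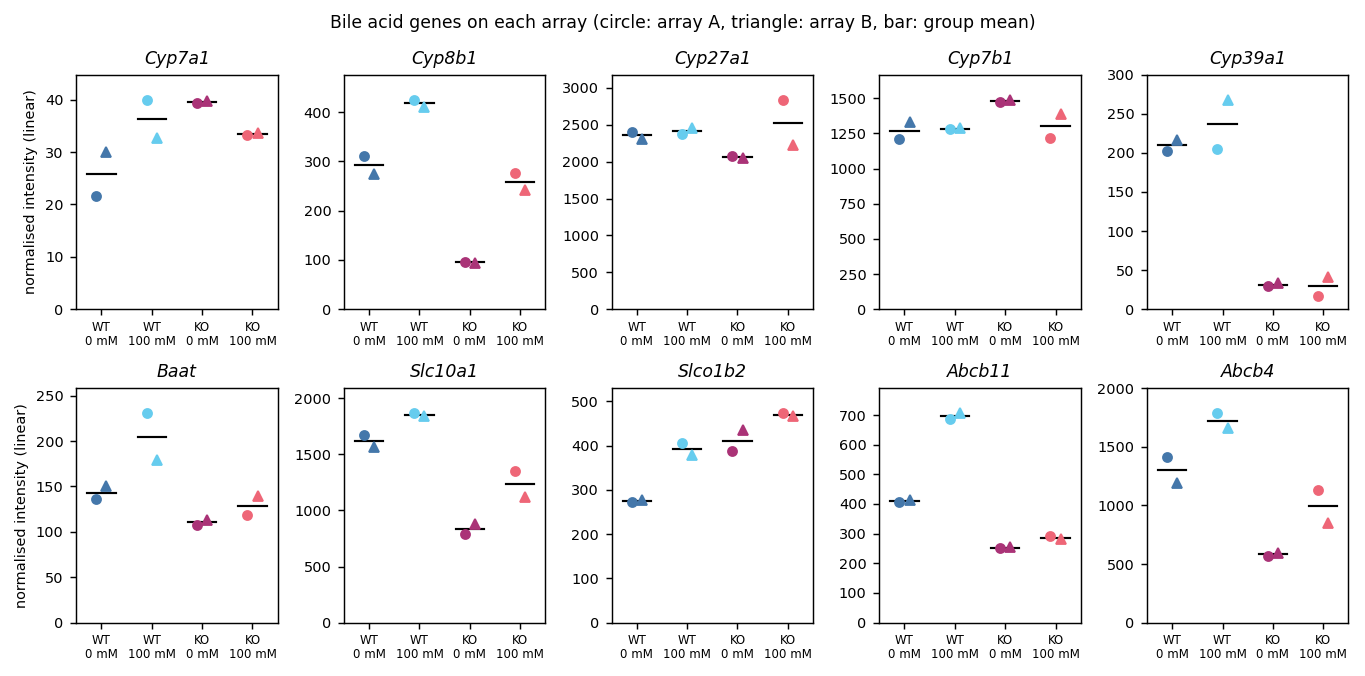
Normalised intensity (linear, y axis) of the lead probe set of each of the 10 genes on all 8 arrays, by group (x axis). Circles are A arrays, triangles B arrays and bars group means of 2 arrays. Cyp39a1 lies at 203 to 268 on the WT arrays and 17.4 to 40.9 on the KO arrays, while Cyp8b1, Slc10a1, Abcb11 and Abcb4 are lowest in untreated KO cells.

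Loss of transglutaminase 2 went with lower levels of 5 of the 10 genes in cells without ethanol. Cyp39a1, Cyp8b1, Abcb4, Slc10a1 and Abcb11 were called lower and Slco1b2 was called higher in KO (limma, adjusted p under 0.05, n = 2 arrays per group). Over all 19814 probe sets tested, 32.3% were called in this comparison, 15.3% higher and 16.9% lower. The median log2 difference of the 10 lead probe sets was -0.497, against -0.0354 over all probe sets tested. With ethanol in both genotypes, 6 genes were called lower and 0 higher in KO: the same 5 and Baat. The background there was 29.1% called, 14% higher and 15.1% lower, and the members' median was -0.595 against -0.0466 over all tested. Averaged over both treatments, 6 genes were called lower and 1 higher, with a background of 42.2% called, 19.6% higher and 22.6% lower. The 10 genes were chosen with earlier results of these arrays known. Cyp39a1 was already known to be among the largest decreases in KO against WT with ethanol in both. Counting the B ethanol arrays as untreated leaves 1 array in each ethanol group. Without ethanol the 5 lower genes stayed called, and Slco1b2, at 0.464, did not. With ethanol Cyp39a1 kept its call, while Cyp8b1 (-0.589), Baat (-0.869), Slc10a1 (-0.459), Abcb11 (-1.19) and Abcb4 (-0.664) lost theirs. A smaller share of all probe sets was called there as well, in both comparisons. With trimmed-mean scaling the median over all probe sets with ethanol was 0.0649 in place of -0.0466.

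**Figure D2:**
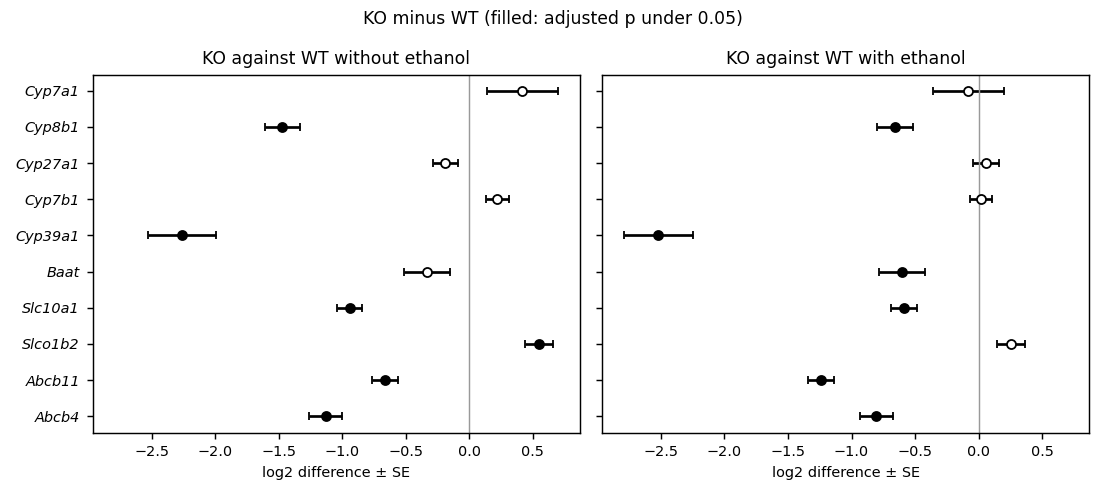
KO minus WT log2 difference (x axis) with its SE for the 10 genes, without ethanol (left) and with 100 mM ethanol (right), 2 arrays per group. Filled points have an adjusted p under 0.05: Cyp39a1 lies at -2.26 and -2.52, and Slco1b2 is the 1 filled point above 0, at 0.549 without ethanol.

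Cyp39a1, which hydroxylates oxysterols on their way into bile acids, had the widest range of group means among the 10 genes on the log2 scale (2.52). Its normalised intensity was 203 and 217 in WT without ethanol, 205 and 268 in WT with it, 29.6 and 33.1 in KO without it, and 17.4 and 40.9 in KO with it. Every WT array lay above every KO array. KO was 4.77-fold lower without ethanol (log2 -2.26 ± 0.27 SE, limma adjusted p = 0.00028) and 5.74-fold lower with it (-2.52 ± 0.27, adjusted p = 0.00016). Ethanol moved it by 0.15 in WT (95% interval -0.462 to 0.761) and by -0.117 in KO (-0.728 to 0.495), neither of which was called. KO values were not far above the offset of 16 that was added before taking log2, so the size of the difference depends on it. With an offset of 64 it was -1.52 and -1.69, with an offset of 1 it was -2.71 and -3.08, and both were called either way.

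Cyp8b1, the sterol hydroxylase of cholic acid synthesis, was low in untreated KO cells and partly higher with ethanol. Its values were 310 and 275 in WT without ethanol, 425 and 410 in WT with it, 96 and 93.7 in KO without it, and 277 and 241 in KO with it. The untreated KO arrays lay apart from the other 6. KO was 2.78-fold lower than WT without ethanol (-1.47 ± 0.14, limma adjusted p = 6.4e-05) and 1.58-fold lower with it (-0.658 ± 0.14, adjusted p = 0.0062). Ethanol raised Cyp8b1 2.48-fold in KO (1.31 ± 0.14, adjusted p = 0.00053), and the WT difference of 0.494 ± 0.14 was not called (adjusted p = 0.072). The ethanol effect differed between the genotypes by 0.815 ± 0.19 (adjusted p = 0.043), over a background of 5.35% called for this interaction, 3.57% higher and 1.78% lower in KO. Cyp8b1 was the 1 member called there. The interaction call was lost in 13 of 20 alternatives, including the omission of any array but ethanol KO B, with values of 0.586 to 0.923 throughout. The lower level in ethanol KO was not called without ethanol WT A (-0.629, adjusted p = 0.053).

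Cyp7a1, the rate-limiting enzyme of the classic pathway, gave little signal in these cultures. Its lead probe set read 21.6 and 30 in WT without ethanol, 40 and 32.7 in WT with it, 39.4 and 39.7 in KO without it, and 33.2 and 33.6 in KO with it. Its mean sat at percentile 54.1 of all complete probe sets, just inside the brighter part that was tested. KO minus WT came to 0.418 without ethanol (95% interval -0.208 to 1.04) and -0.0805 with it (-0.707 to 0.546), and no comparison called it. The other Cyp7a1 probe set read 2.74 to 34 and was under the filter. The genes whose lead probe sets varied most like Cyp7a1 over the 8 arrays were Tmtc2 (Pearson r = 0.962), Nkrf (0.945), Cped1 (0.932), Fscn1 (0.901) and Zfp217 (0.899), among 10529 genes. For Cyp39a1 they were Mov10 (0.996), Grb14 (0.994), Itih5 (0.994), Gmnn (0.993) and Smpdl3b (0.993). With 8 arrays in 4 groups such values describe the arrays and were not tested.

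Neither enzyme of the acidic pathway was called in any comparison of the fit on all 8 arrays, but both were called for KO against WT without ethanol in 4 alternatives. Cyp27a1, the mitochondrial side-chain hydroxylase, read 2400 and 2310 in WT without ethanol, 2380 and 2450 in WT with it, 2080 and 2050 in KO without it, and 2840 and 2220 in KO with it. The A and B arrays of ethanol KO were farther apart than those of any other group. KO minus WT was -0.187 without ethanol (95% interval -0.422 to 0.0473) and 0.0588 with it (-0.176 to 0.294), and the ethanol difference in KO was 0.283 ± 0.1 (adjusted p = 0.082). The difference without ethanol was called with the compared groups alone, with the B ethanol arrays left out, and without ethanol KO A or ethanol KO B (-0.19 to -0.187, adjusted p = 0.023 to 0.03). Without ethanol KO B the difference with ethanol was 0.237 and called (adjusted p = 0.023). A second Cyp27a1 probe set had an unusable value on ethanol WT B and was not tested. Its deposited intensities on the other arrays were 1.53 to 17.

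Cyp7b1, the oxysterol hydroxylase that follows Cyp27a1, read 1210 and 1330 in WT without ethanol, 1280 and 1290 in WT with it, 1470 and 1490 in KO without it, and 1220 and 1390 in KO with it. Its KO minus WT difference without ethanol was 0.222 (95% interval 0.0226 to 0.42, adjusted p = 0.085) and with ethanol 0.0198 (-0.179 to 0.219). The difference without ethanol was called in the same 4 alternatives as that of Cyp27a1 (0.219 to 0.222, adjusted p = 0.04 with the compared groups alone). With the compared groups alone 8 members were called in place of 6. The share over all probe sets also rose there, from 32.3% to 40.7% called. A second tested probe set gave 0.0977 and -0.399 for the same comparisons (adjusted p = 0.63 and 0.056). On all 8 arrays no tested probe set of either gene was called in any of the 7 comparisons.

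Baat, which conjugates bile acids to taurine or glycine, read 136 and 150 in WT without ethanol, 231 and 179 in WT with it, 108 and 113 in KO without it, and 119 and 139 in KO with it. It was 1.52-fold lower in KO with ethanol (-0.604 ± 0.18, limma adjusted p = 0.031). Without ethanol the difference of -0.331 was not called (adjusted p = 0.19). The call with ethanol was lost in 13 of 22 alternatives, with differences of -0.869 to -0.347. Arrays whose omission ended it were both untreated WT arrays, both untreated KO arrays, ethanol WT A and ethanol KO A, with adjusted p values of 0.051 to 0.23. Averaged over both treatments Baat differed in KO by -0.467 ± 0.13 (adjusted p = 0.014), a call lost in 4 of 20 alternatives, among them without untreated WT B and without ethanol WT A. A second, dimmer Baat probe set read 3.24 and 54.1 in ethanol KO, and its -1.44 against WT was not called (adjusted p = 0.058). Its KO minus WT difference without ethanol, 0.699 (adjusted p = 0.33), and its ethanol difference in KO, -1.12 (adjusted p = 0.14), were opposite in sign to those of the lead (-0.331 and 0.197).

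Of the 4 transporters, 3 were lower in KO with and without ethanol. Slc10a1, the sodium-dependent carrier that takes up most conjugated bile acids, read 1670 and 1570 in WT without ethanol, 1870 and 1840 in WT with it, 792 and 880 in KO without it, and 1350 and 1120 in KO with it. All WT arrays lay above all KO arrays. It was 1.92-fold lower in KO without ethanol (-0.941 ± 0.1, limma adjusted p = 0.00016) and 1.5-fold lower with it (-0.586 ± 0.1, adjusted p = 0.0027). Ethanol raised it in KO by 0.548 ± 0.1 (adjusted p = 0.0061), a call lost without untreated KO A (0.473, adjusted p = 0.064), and the 0.193 ± 0.1 in WT was not called (adjusted p = 0.37).

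A second Slc10a1 probe set gave another picture with ethanol. It read 1030 and 1170 in WT without ethanol, 838 and 868 in WT with it, 640 and 634 in KO without it, and 831 and 914 in KO with it. It too was lower in untreated KO (-0.772 ± 0.096, limma adjusted p = 0.00033) and rose with ethanol in KO (0.443 ± 0.096, adjusted p = 0.011). In WT its ethanol difference was -0.36 ± 0.096 (adjusted p = 0.064), below 0 where the lead probe set lay above 0. With ethanol the KO and WT arrays overlapped (0.031 ± 0.096, adjusted p = 0.84). Its ethanol effects differed between genotypes by 0.803 ± 0.14 (adjusted p = 0.013), while the lead probe set's difference of 0.356 ± 0.15 was not called (adjusted p = 0.19).

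Abcb11, the bile salt export pump, was lower in KO and rose with ethanol in WT. It read 407 and 412 in WT without ethanol, 687 and 707 in WT with it, 252 and 254 in KO without it, and 292 and 281 in KO with it. The 4 groups did not overlap, and the arrays of each pair lay close together. KO was 1.58-fold lower without ethanol (-0.662 ± 0.1, limma adjusted p = 0.0012) and 2.36-fold lower with it (-1.24 ± 0.1, adjusted p = 3.6e-05). Ethanol raised it 1.68-fold in WT (0.745 ± 0.1, adjusted p = 0.0038), a call lost on the 5 arrays whose ratio of the spike-in controls bioC and bioB was above 2 (0.766, adjusted p = 0.056), and the KO difference of 0.17 ± 0.1 was not called (adjusted p = 0.27). The difference between these ethanol effects, -0.575 ± 0.15, just missed the threshold (adjusted p = 0.054). It was called in 4 alternatives, with an offset of 64 (adjusted p = 0.044), among the brightest 30% of probe sets (adjusted p = 0.033), and without ethanol KO A (adjusted p = 0.049) or ethanol KO B (adjusted p = 0.029), so the test does not settle whether the genotypes respond differently.

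Abcb4, the canalicular phospholipid flippase, had the same order of groups as Slc10a1. It read 1410 and 1190 in WT without ethanol, 1790 and 1660 in WT with it, 569 and 597 in KO without it, and 1130 and 853 in KO with it. It was 2.19-fold lower in KO without ethanol (-1.13 ± 0.13, limma adjusted p = 0.00024) and 1.75-fold lower with it (-0.804 ± 0.13, adjusted p = 0.0019). Ethanol raised it in KO by 0.735 ± 0.13 (adjusted p = 0.0051), and the WT difference of 0.408 ± 0.13 was not called (adjusted p = 0.12). Among the 10 genes, over the 8 arrays, Abcb4 varied most like Slc10a1 (Pearson r = 0.991) and Cyp8b1 (0.97), while Abcb11 varied most like Baat (0.922). These points share arrays and group structure, so the correlations are descriptions.

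Slco1b2, the organic anion transporter that takes up unconjugated bile acids and drugs, was higher in untreated KO, where Slc10a1, Abcb11 and Abcb4 were lower. It read 273 and 278 in WT without ethanol, 405 and 378 in WT with it, 387 and 436 in KO without it, and 474 and 467 in KO with it. Untreated WT was the lowest group and ethanol KO the highest. It was 1.46-fold higher in KO without ethanol (0.549 ± 0.11, limma adjusted p = 0.0047), and the 0.256 ± 0.11 with ethanol was not called (adjusted p = 0.12). Of its other probe sets, 2 were tested and both were higher in KO with and without ethanol, by 0.762 and 0.676 (adjusted p = 0.0026 and 0.0057) and by 1.23 and 1.51 (adjusted p = 0.028 and 0.012). The last of these read 2.09 to 77.3, at the dim end of the range.

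**Figure D3:**
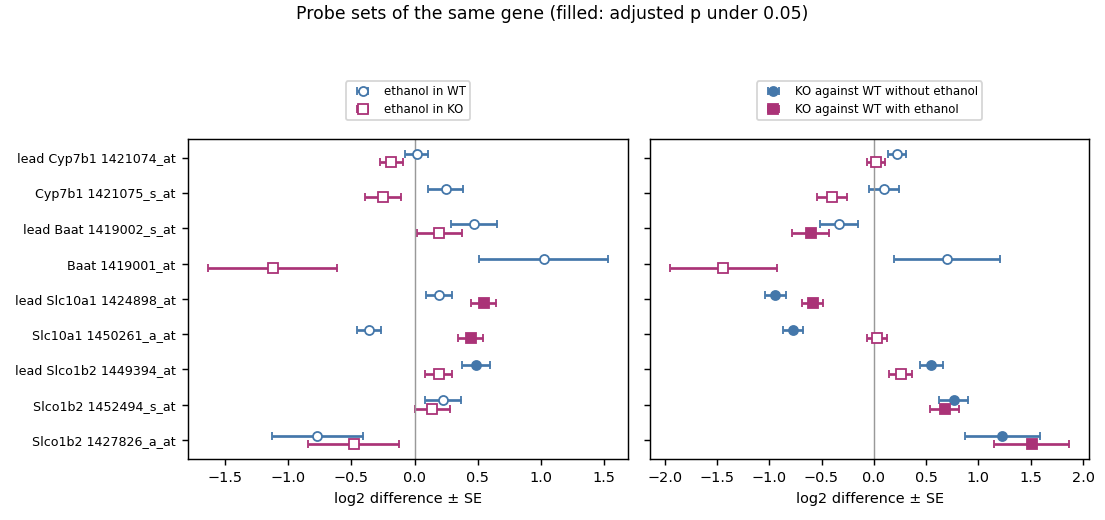
Log2 differences with SE (x axis) for every tested probe set of the 4 genes that had more than 1, ethanol minus untreated (left: circles WT, squares KO) and KO minus WT (right: circles without ethanol, squares with ethanol), 2 arrays per group. Filled symbols have an adjusted p under 0.05. The Slc10a1 probe sets lie on opposite sides of 0 for ethanol in WT, at 0.193 and -0.36, and all 3 Slco1b2 probe sets lie above 0 for KO minus WT.

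Promoter windows were read for the genes that were lower in KO with and without ethanol, to show the sequence upstream of members that moved together. RefSeq windows of GRCm38.p6, 300 bases long and spanning the transcript start, were found for 6 of the 10 genes. No window was found for Cyp7a1, Cyp7b1, Baat or Cyp39a1, though Cyp39a1 was also lower in KO with and without ethanol. They were searched on both strands for the GC box GGGCGG bound by Sp1, the transcription factor the study concerns, for the nuclear receptor motif AGGTCA, and for its pair in inverted orientation 1 base apart with at most 1 mismatch, the form that FXR binds. A direct pair with the same spacing, the NR5A2 motif CAAGGTCA, the FOXA motif TGTTTAC and the HNF1 motif GTTAAT were searched as well. Capitals mark matches, and the windows are printed 5′ to 3′ on the strand of the gene:

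Abcb11 (chr2:69342567-69342866, minus strand): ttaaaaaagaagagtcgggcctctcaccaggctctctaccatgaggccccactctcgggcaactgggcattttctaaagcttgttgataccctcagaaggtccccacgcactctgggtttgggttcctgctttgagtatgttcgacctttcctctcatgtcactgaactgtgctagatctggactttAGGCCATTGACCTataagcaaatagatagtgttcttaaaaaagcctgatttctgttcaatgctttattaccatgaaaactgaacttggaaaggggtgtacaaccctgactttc

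Abcb4 (chr5:8893471-8893770, plus strand): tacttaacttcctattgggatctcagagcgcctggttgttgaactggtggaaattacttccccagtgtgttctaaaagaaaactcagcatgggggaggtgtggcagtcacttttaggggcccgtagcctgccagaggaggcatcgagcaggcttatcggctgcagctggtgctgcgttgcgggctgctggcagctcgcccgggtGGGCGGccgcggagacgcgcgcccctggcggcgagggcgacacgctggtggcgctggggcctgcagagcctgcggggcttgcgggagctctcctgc

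Cyp8b1 (chr9:121916256-121916555, minus strand): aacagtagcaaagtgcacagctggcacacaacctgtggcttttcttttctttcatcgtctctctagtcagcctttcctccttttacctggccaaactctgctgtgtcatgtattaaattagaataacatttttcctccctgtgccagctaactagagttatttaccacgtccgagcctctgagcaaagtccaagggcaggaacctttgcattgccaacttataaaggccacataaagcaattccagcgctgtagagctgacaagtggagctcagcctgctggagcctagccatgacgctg

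Slc10a1 (chr12:80968656-80968955, minus strand): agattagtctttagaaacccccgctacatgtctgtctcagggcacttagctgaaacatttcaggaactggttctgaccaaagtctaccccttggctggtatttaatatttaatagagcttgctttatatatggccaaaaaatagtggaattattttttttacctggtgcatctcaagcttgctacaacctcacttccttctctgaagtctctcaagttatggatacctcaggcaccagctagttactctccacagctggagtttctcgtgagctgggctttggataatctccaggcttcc

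The Abcb11 window held the inverted pair, whose first base lay 63 bases before the transcript start, and AGGTCA on the minus strand of the gene within it. Of 32851 windows of the same length, 0.0822% held such a pair and 16.3% held AGGTCA. The Abcb4 window held a GC box, as did 35.7% of all windows. None of the 7 motifs was found in the Cyp8b1 window or in the Slc10a1 window shown, which says only that these letters are not in those 300 bases. A second RefSeq window of Slc10a1 (chr12:80968030-80968329, minus strand), not printed, held AGGTCA 87 bases before its transcript start. Among the other members, the inverted pair was also in the window of Slco1b2, which was higher in KO, and a GC box was in that of Cyp27a1, which was not called. CAAGGTCA, TGTTTAC and the direct pair, found in 1.56%, 3.65% and 0.554% of all windows, were in none of the member windows found. GTTAAT, found in 7.1%, was in that of Slco1b2.

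With 100 mM ethanol, 2 of the 10 genes rose in WT cells, Abcb11 and Slco1b2, and 0 fell (limma, n = 2 arrays per group). The background was 5.58% called, 1.67% higher and 3.91% lower. All 10 lead differences were above 0, from 0.0175 to 0.745, with a median of 0.369 against 0.0138 over all probe sets tested. The Slco1b2 rise of 0.483 ± 0.11 (adjusted p = 0.037) was lost in 12 of 22 alternatives, with adjusted p values up to 1 when the B ethanol arrays were counted as untreated. The other tested Slco1b2 probe sets gave 0.226 (adjusted p = 0.45) and -0.77 (adjusted p = 0.3) for ethanol in WT, the latter opposite in sign to the lead. With the compared groups alone 4 genes were called, with Cyp8b1 (0.509, adjusted p = 0.042) and Abcb4 (0.406, adjusted p = 0.049) added. There 7.45% of all probe sets were called in place of 5.58%.

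In KO cells 3 of the 10 genes rose with ethanol, Cyp8b1, Abcb4 and Slc10a1, and 0 fell. The background was 22.2% called, 11.4% higher and 10.8% lower, and the median of the 10 was 0.194 against -0.00537 over all tested. Without ethanol KO B, which leaves ethanol KO A alone in its group, the ethanol differences were 0.463 for Cyp27a1 and -0.273 for Cyp7b1. In the full fit these differences were 0.283 and -0.184. Averaged over both genotypes, 5 genes rose and 0 fell with ethanol: Cyp8b1 (0.902 ± 0.097, limma adjusted p = 0.00047), Abcb4 (0.572 ± 0.094, adjusted p = 0.0033), Abcb11 (0.457 ± 0.073, adjusted p = 0.0029), Slc10a1 (0.371 ± 0.073, adjusted p = 0.0075) and Slco1b2 (0.336 ± 0.079, adjusted p = 0.016). The background was 20.1% called, 9.86% higher and 10.3% lower. The Slco1b2 average was lost in 7 of 20 alternatives, and its other tested probe sets gave 0.183 (adjusted p = 0.23) and -0.625 (adjusted p = 0.12). The second Slc10a1 probe set gave an average of 0.0415 ± 0.068 (adjusted p = 0.71). Counting the B ethanol arrays as untreated left 0 of the 10 called in WT, in KO and averaged, with 0, 1.92 and 0.0101% of all probe sets called.

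**Figure D4:**
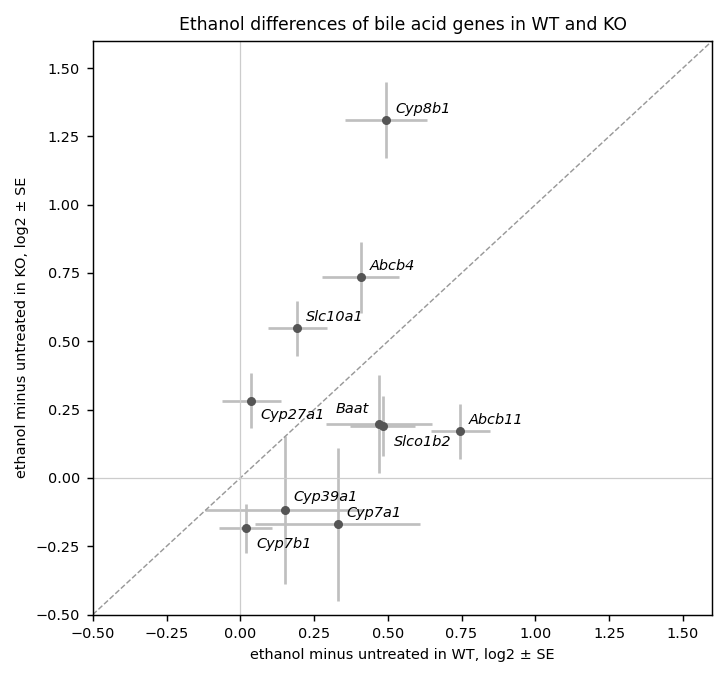
Ethanol minus untreated log2 difference in WT (x axis) and in KO (y axis) for the 10 lead probe sets, with SE bars, 2 arrays per group. The dashed line marks equal differences: Cyp8b1 lies above it at 0.494 and 1.31, and Abcb11 below it at 0.745 and 0.17.

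The enzymes and carriers around these 10 genes were taken from lists of the pathway. Of 17 tested genes for other steps of bile acid synthesis and conjugation, 4 were higher and 2 lower in untreated KO and 8 higher and 1 lower in ethanol KO, with medians of 0.128 and 0.252. Over all probe sets 32.3% and 29.1% were called in these comparisons, and the 6 of 17 in untreated KO is near that share. Cyp2c70, the mouse enzyme of muricholic acid synthesis, was lower in KO without and with ethanol (-1.12 ± 0.093 and -0.902 ± 0.093, limma adjusted p = 3.4e-05 and 0.00012). Sult2a8, a bile acid sulfotransferase, was higher (1.3 ± 0.088 and 0.995 ± 0.088, adjusted p = 1.1e-05 and 4.9e-05). Of 13 tested genes for other bile acid, organic anion and biliary lipid transporters, 2 were higher and 5 lower in untreated KO, and 0 higher and 4 lower in ethanol KO, with medians of -0.132 and -0.179. Against the same 32.3% and 29.1%, the 4 of 13 with ethanol is near the share over all probe sets. The organic anion carriers Slc22a7 (-1.33 ± 0.17 and -1.04 ± 0.17, adjusted p = 0.00041 and 0.0019) and Slco1a1 (-0.626 ± 0.11 and -0.645 ± 0.11, adjusted p = 0.0024 and 0.0024) were lower without and with ethanol. A second Slco1a1 probe set was called lower without ethanol (-0.949, adjusted p = 0.0037) and not with it (-0.466, adjusted p = 0.087). With ethanol in KO cells, 5 of these 13 transporters rose and 1 fell. In WT cells 1 rose and 0 fell. Over all probe sets 22.2% were called for ethanol in KO and 5.58% in WT, and the 1 of 13 in WT is near that share.

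Regulators of bile acid genes were measured on 20 tested genes, of which 1 was higher and 6 lower in untreated KO and 4 higher and 7 lower in ethanol KO. Their medians were -0.164 and -0.268. The 7 of 20 called in untreated KO is near the 32.3% over all probe sets, and the 11 of 20 with ethanol stands beside 29.1%. Hnf4a, a nuclear receptor that maintains hepatocyte gene expression, read 1150 and 1200 in WT without ethanol, 1590 and 1650 in WT with it, 467 and 430 in KO without it, and 820 and 704 in KO with it. All WT arrays of this lead probe set lay above its KO arrays (-1.36 ± 0.098 and -1.08 ± 0.098, limma adjusted p = 1.6e-05 and 6.1e-05). The lead Hnf4a probe set rose with ethanol in WT by 0.462 ± 0.098 (adjusted p = 0.028) and in KO by 0.741 ± 0.098 (adjusted p = 0.0013). The other 3 Hnf4a probe sets gave 0.0486, -0.652 and -0.774 for KO against WT without ethanol (adjusted p = 0.9, 0.0034 and 0.026). For ethanol in KO they gave 0.403, 0.416 and 0.0375 (adjusted p = 0.26, 0.04 and 0.92). These 3 probe sets did not all go the way of the lead. With ethanol, 1 of them was called higher in KO (0.965, adjusted p = 0.015), another lay above 0 without a call (0.253, adjusted p = 0.16) and the third was called lower (-0.908, adjusted p = 0.015). For ethanol in WT the same probe sets gave -0.514, -0.488 and 0.172, with no call (adjusted p = 0.29, 0.053 and 0.79).

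Foxa2, a hepatocyte pioneer factor, had its lowest level in untreated KO, like Cyp8b1. It read 297 and 336 in WT without ethanol, 351 and 363 in WT with it, 42.5 and 58.1 in KO without it, and 243 and 180 in KO with it. It was lower in untreated KO by -2.33 ± 0.19 (limma adjusted p = 2.7e-05) and rose with ethanol in KO by 1.77 ± 0.19 (adjusted p = 0.00054). Zbtb20, a zinc finger repressor, was lower in KO at its lead probe set (-0.965 and -0.715, adjusted p = 0.00014 and 0.00089). Its other tested probe sets ran from -1.66 to 0.301 without ethanol and from -1.06 to 0.892 with it. The 1 above 0 was not called in either (adjusted p = 0.52 and 0.063). Nr1d1, a clock repressor, was higher in KO (1.61 and 1.69, adjusted p = 0.0012 and 0.0011). Nr1h4, the gene of FXR, was named after its values were seen. It read 112 and 91.5 in WT without ethanol, 181 and 223 in WT with it, 49.7 and 65 in KO without it, and 28.1 and 70.3 in KO with it, and its KO minus WT difference was called with ethanol (-1.82 ± 0.31, adjusted p = 0.0023) and not without (-0.686 ± 0.31, adjusted p = 0.12).

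**Figure D5:**
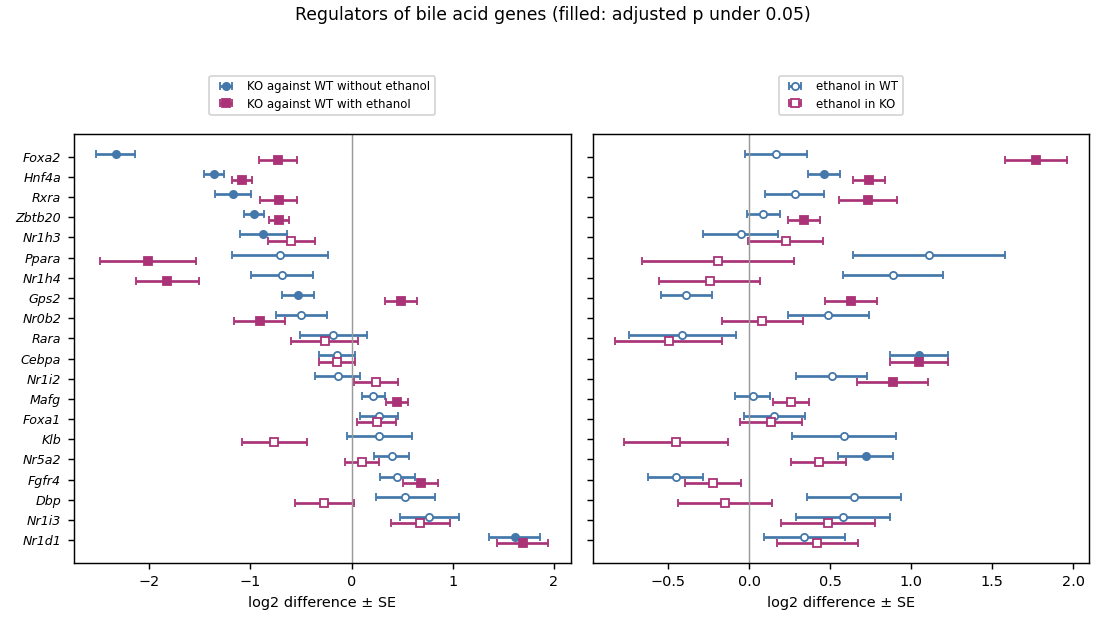
Log2 differences with SE (x axis) of the 20 tested regulators of bile acid genes, KO minus WT (left: circles without ethanol, squares with ethanol) and ethanol minus untreated (right: circles WT, squares KO), 2 arrays per group. Filled symbols have an adjusted p under 0.05. Foxa2 lies at -2.33 for untreated KO minus WT and at 1.77 for ethanol in KO, and Nr1d1 lies at 1.61 and 1.69 for KO minus WT.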

How the data were processed

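The authors deposited 1 linear intensity for each probe set on each array, a single-colour Affymetrix design hybridised with biotin-labelled cRNA, per the labels' protocols. Neither the software nor the scaling behind the values is given in the sources used here. On ethanol WT B, 5410 values were zeros or impossible, and those probe sets were left out. With the 64 control probe sets also removed, 39627 remained. They were quantile normalised and expressed as log2(intensity + 16), so fold changes of dim genes are understated. The brighter 50% (mean log2 of at least 5.4), 19814 probe sets, were tested with limma 3.58.1 in R 4.3.3 on all 8 arrays with 4 group means and a variance trend (4 residual and 5.43 prior degrees of freedom). p-values were adjusted by Benjamini-Hochberg over all probe sets tested in each of 7 comparisons, and a gene was called at an adjusted p under 0.05 on its lead probe set. Errors are model SEs of log2 differences, and 95% intervals use the same fit. The number of arrays limits the precision.

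The members and lists were chosen with earlier results of these data known. All 10 members were named. From the lists, the 8 genes with the smallest adjusted p in any comparison were named, and Nr1h4 was added. Symbols came from the platform annotation, updated through RefSeq (GRCm38.p6). Likeness was Pearson's r over the 8 arrays. Alternatives changed scaling, offset, filter, variance trend, arrays used and grouping of the B ethanol arrays. Another counted a gene as called if any of its tested probe sets was. One split arrays at a ratio of 2 of the bioC to bioB spike-in controls. Samples with the same letter did not all deviate together, so letters were not taken as pairs. Correlations were 0.204 to 0.302 among untreated WT, ethanol WT and ethanol KO, and 0.0218 to 0.0308 for pairs with untreated KO. The A arrays of those first groups had bioC to bioB ratios of 0.937 to 1.06. All other arrays, with both of untreated KO, had 2.59 to 3.14. The labels do not say what this split stands for.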

Additional observations from a re-analysis of the deposited data

Results flagged for a closer look

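The ethanol effects of 2 member probe sets differed between KO and WT by the test of the difference itself. For the Cyp8b1 lead probe set the ethanol effect was 0.815 larger in KO (limma, adjusted p = 0.043), with 0.952 from the A arrays and 0.678 from the B arrays. For the second Slc10a1 probe set it was 0.803 larger in KO (adjusted p = 0.013), with 0.663 from the A arrays and 0.942 from the B arrays.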

How the results depend on the processing

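Of 30 gene and comparison pairs called among the 10 lead probe sets, 10 kept their call and direction in every alternative that could be tested, and none changed sign while called. No alternative for these pairs replaced the lead probe set by another of the same gene. These 10 were the KO minus WT differences without ethanol of Cyp8b1, Cyp39a1, Slc10a1, Abcb11 and Abcb4, that of Cyp39a1 with ethanol, and the averaged ones of Cyp39a1, Slc10a1, Abcb11 and Abcb4. All but that of Cyp39a1 with ethanol use the untreated KO arrays, which were both dim (trimmed means 113.3 and 117). The untreated WT arrays read 228 and 307.1. Leaving out the 3 dimmest arrays removes untreated KO, so that alternative could not be run for these pairs. Without ethanol, genotype and array brightness cannot be told apart. For ethanol in WT the count of 2 was 4 with the compared groups alone and with the spike-in split as a term. It was 1 with no filter, no variance trend or incomplete probe sets kept. For ethanol in KO the count stayed at 3 in the alternatives that kept 2 arrays in each compared group. Counting the B ethanol arrays as untreated leaves 1 array in each ethanol group. All 7 counts fell there, and so did each share over all probe sets called. For the interaction the count of 1 was 0 with no filter, no variance trend or incomplete probe sets kept. It was 2 with the brightest 30% of probe sets or any probe set of a gene. A group is also left with 1 array by omitting single arrays, both B ethanol arrays or the 3 dimmest arrays. The same holds for the high spike-in side alone. Many counts moved in these fits, up in some and down in others, and the shares over all probe sets moved as well. The low spike-in side has no repeated group, so its 5 values that moved had no test, and Cyp7a1 and Cyp39a1 are not among the brightest 30%. With the replicate letter as a replicate block the 7 counts were 2, 3, 6, 6, 1, 7 and 5, as without it. The share of all probe sets called moved with the setting as well. For ethanol in WT it was 5.58% in the full fit, 7.45% with the compared groups alone, 1.8% with no filter and 1.44% with no variance trend. For KO against WT without ethanol it was 32.3%, and 40.7% with the compared groups alone. For the interaction it was 5.35%, 1.67% with no filter and 12% with the brightest 30% of probe sets. Changes in the counts are therefore not results about the members alone. The cause of these changes was not tested.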
